A study of Mus musculus with 16 samples.

Results

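In mouse mitochondrial DNA, 115 of the 16299 possible transitions were carried at a fraction of at least 0.5%, with at least 5 counts, by all 8 libraries of replicate 1 or by all 8 libraries of replicate 2. A transition is a change from C to T, T to C, G to A or A to G, and the fraction is the count of the changed base divided by the coverage of its position. Replicate 1 held 66 such shared transitions and replicate 2 held 67. Of these, 18 were shared in both, 48 in replicate 1 only and 49 in replicate 2 only. The alleles were chosen by their measured fractions, so the levels that met the rule are given as a description without a test.

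The 16 libraries are bulk ATAC-seq libraries, made by cutting the DNA of sorted cells with Tn5 transposase, which also reads mitochondrial DNA. The cells came from femurs of mice 3 months old, all of the strain PolG D257A/D257A. Flow cytometry gave 8 subsets, which the labels call skeletal cells throughout, labelled by surface markers as CD24, CD29, CD24_CD29, Thy, 6C3, Thy_6C3, CD105 and CD45, with 1 library of each subset in replicate 1 and 1 in replicate 2. No library of another genotype was analysed here, so nothing below separates the effect of the PolG allele from the background of the assay. The number of mice behind a library, and whether libraries share mice, is not in the labels, so differences between libraries may be technical or biological. The files hold no gene expression, so the labelled subsets could not be checked against their markers. CD45 is known as a marker of cells of the blood lineages.

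PolG is the polymerase that copies mitochondrial DNA, and the D257A change removes its proofreading, so that point mutations accumulate in every tissue. A cell holds many copies of mitochondrial DNA, and a mutation carried by some of them is called heteroplasmic. When cells divide, the copies are parted at random, and the fraction of a heteroplasmic allele drifts up or down between descendants. An allele found in many cell types of an animal can have been inherited through the egg or have arisen early in development, and alleles can also recur at the same position in separate cells. The sequenced libraries are pools of cells, so a fraction in a pool cannot tell a few cells with many copies from many cells with few copies.

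The alleles with the highest means are given here in their surrounding sequence. So are those shared in both replicates among the alleles that varied least between libraries at means of at least 1%. Each line gives 10 bases on either side of the changed base, which is in capitals, on the + strand of GRCm38 as in the reference bases of the deposited tables. An allele is named by its reference base, its position counted from 1 on chrM and its changed base. Gene names and coordinates are those of RefSeq for GRCm38.p6, and protein changes were read with the vertebrate mitochondrial code.
C10658T (ND4, chrM:10648-10668): taattgccctCatcttaatcc
G3079A (ND1, chrM:3069-3089): gcaacatctaGcctatcagtt
C7953T (ATP8 and ATP6, chrM:7943-7963): ttgcctcattCattaccccaa
C7166T (COX2, chrM:7156-7176): aaaactaacaCatacaagcac
C4093T (ND2, chrM:4083-4103): caaaatacttCgtcacacaag
C4216T (ND2, chrM:4206-4226): cattaatagcCctatccataa
C11959T (ND5, chrM:11949-11969): accataaattCaatagaactt
C1051T (TrnV, chrM:1041-1061): attaaagcatCtggcctacac
C14024T (ND6, chrM:14014-14034): taacccaagaCaaccaaccaa
C3085T (ND1, chrM:3075-3095): tctagcctatCagtttactcc
C609T (mt-Rnr1, chrM:599-619): tactttatatCcatctagagg
T10288C (ND4, chrM:10278-10298): agcctaacacTtctatgacaa
A2467G (mt-Rnr2, chrM:2457-2477): tgtagaagctAttaatggttc
T6211C (COX1, chrM:6201-6221): atattcacagTaggattagat

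Sharing by all 8 subsets was the exception among the transitions of a replicate. Of the 2954 transitions that met the threshold in at least 1 library of replicate 1, 1874 met it in exactly 1 library and 66, or 2.23%, in all 8. For replicate 2 the counts were 3196 in at least 1 library, 2046 in exactly 1 and 67, or 2.1%, in all 8. Transitions with a high mean were all shared: 23 of 23 with a mean of at least 2% over the libraries of replicate 1 met the rule, and so did 24 of 24 in replicate 2. At a mean of at least 1%, 46 of 55 met it in replicate 1 and 51 of 63 in replicate 2. Among those that did not, C14338T stood at 9.09% in the CD24_CD29 library of replicate 1 and at 0.0316% in its lowest library, and met the threshold in that library alone.

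Just inside the threshold in replicate 1 stood T15024C, with a lowest fraction of 0.505% in Thy, T3944C with 0.508% in Thy_6C3 and T13267C with 0.515% in CD24_CD29. Just outside it were T11359C with 0.49998% in Thy_6C3, T11272C with 0.488% in CD105 and C8210T with 0.485% in Thy. The lowest fractions of A1060G, T10017C and A12998G, between 0.501% and 0.508% in replicate 2, were just inside, and those of T6885C, C14149T and T8830C, between 0.492% and 0.498%, just outside. Membership near 0.5% thus turned on differences far smaller than the spread between libraries.

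Depth was ample for these levels. Coverage at the positions of shared transitions ran from 3549 to 147011 counts in a library, and the smallest count of a shared transition in a library of its own replicate was 26. Mean coverage per library ran from 6569 in CD24_CD29 of replicate 2 to 77252 in CD29 of replicate 1, and the number of transitions at the threshold from 347 in CD105 of replicate 1 to 1528 in 6C3 of replicate 1. Exact (Clopper-Pearson) 95% intervals given below cover counting error only, since the reads carry no molecular identifiers.

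The shared transitions held a larger share of C>T changes than the possible transitions do, and they divided by level. C>T made 36 of the 115 (31.3%), against 24.4% of all possible transitions, and G>A made 11 (9.57%, against 12.4%). T>C made 39 (33.9%, against 28.7%) and A>G made 29 (25.2%, against 34.5%). In replicate 1, 20 of the 23 alleles with a mean of at least 2% were C>T or G>A, and 19 of the 20 alleles with a mean under 1% were T>C or A>G. In replicate 2, 16 of the 24 alleles at 2% or more were C>T or G>A, and 16 of the 16 under 1% were T>C or A>G. Changed C bases lay before an A in 19 of 36 alleles (52.8%, against 34.3% of all C in the genome) and after a T in 17 of 36 (47.2%, against 27.3%).

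The subunits of complex I, the NADH dehydrogenase of the respiratory chain, held 56 of the 115 alleles (48.7%, against 38.9% of possible transitions). Complex IV, the cytochrome c oxidase, held 12 (10.4%, against 18.5%), with 8 in COX1, 2 in COX2 and 1 in COX3 alone and 1 in the bases that COX1 shares with TrnS1. Complex V, the ATP synthase, held 9 (7.83%, against 5.17%), and complex III, represented by cytochrome b (CYTB), held 8 (6.96%, against 7.02%). Ribosomal RNA genes held 14 (12.2%, against 15.6%) and transfer RNA genes 13 (11.3%, against 9.14%). The control region, where replication and transcription start, held 2 (1.74%, against 5.38%), C15632T and A16099G, both in replicate 1. The last, G5171A, lay between TrnN and TrnC, where the origin of light-strand replication is found. Among 85 alleles in coding sequence, 54 changed an amino acid and 27 were synonymous, while 63.5% and 59.0% are the missense shares of the shared and of the possible transitions.

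**Figure D1:**
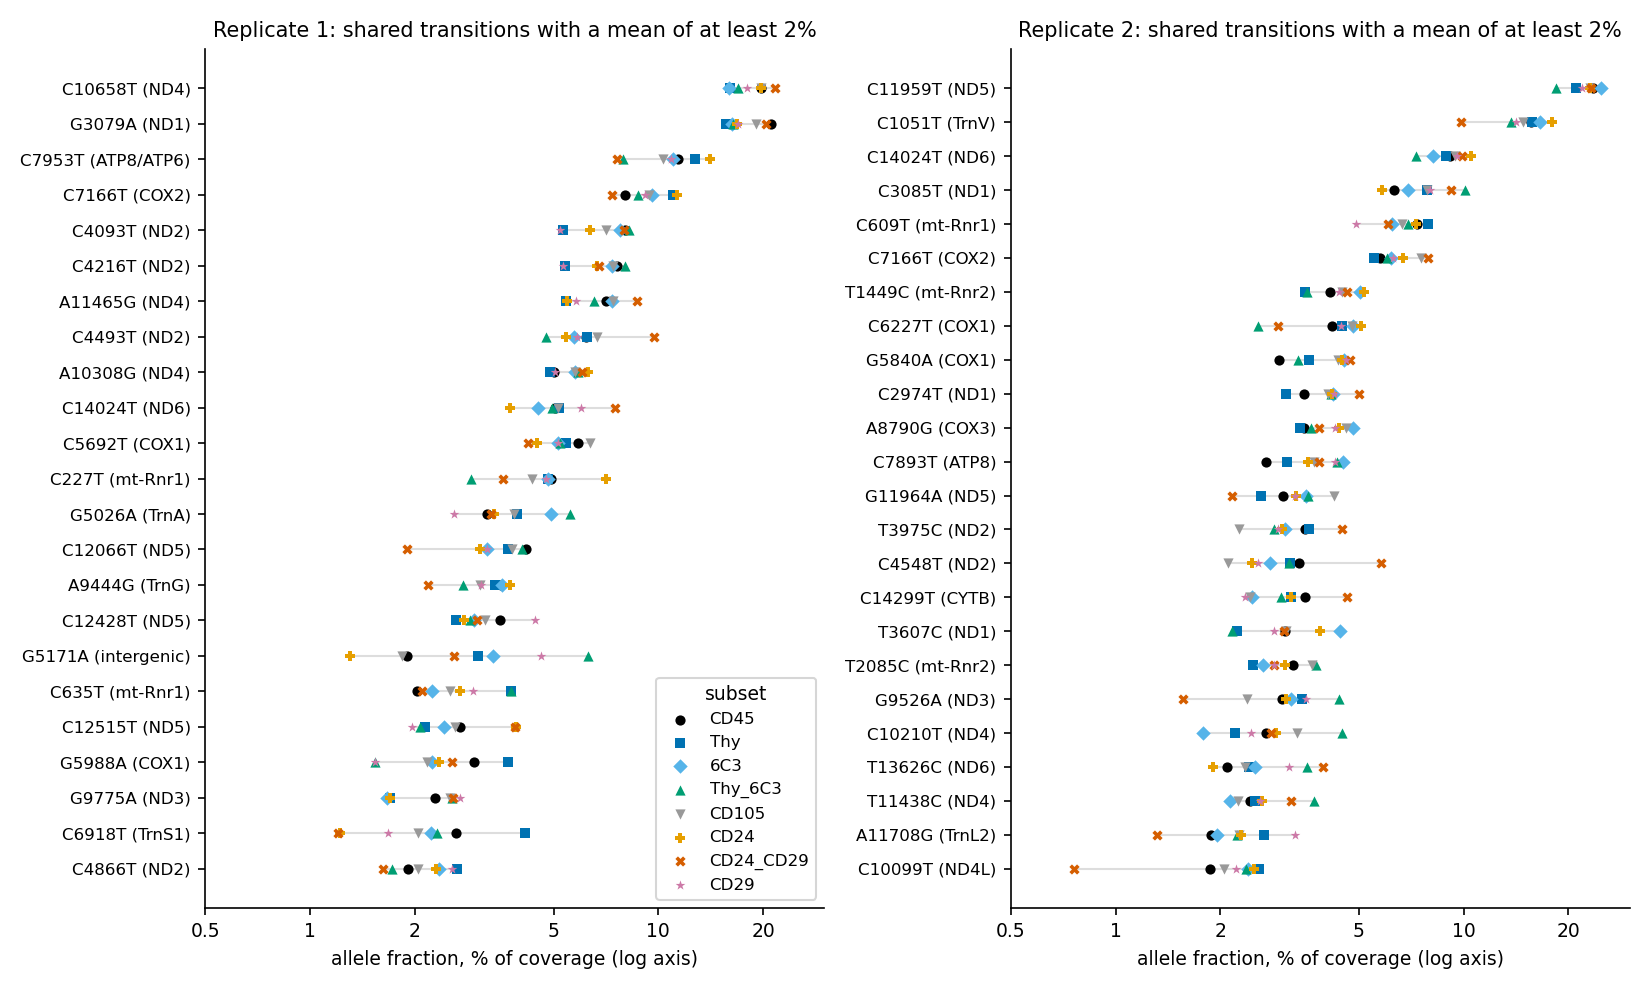
Allele fraction (percent of coverage, log axis) of each shared transition with a mean of at least 2%, with 1 point for each of the 8 libraries of replicate 1 (left) and replicate 2 (right). The top alleles reached 21.7% (C10658T) and 24.9% (C11959T), and most rows span less than a 2-fold range, with G5171A (4.81-fold) and C10099T (3.41-fold) among the widest.

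In replicate 1 the highest alleles were C10658T and G3079A. C10658T, a synonymous change of a leucine codon in ND4 (L164L), had a lowest fraction of 16% in 6C3, a median of 18.8% and a highest of 21.7% in CD24_CD29. G3079A, which changes serine 110 of ND1 to asparagine (S110N), had a lowest of 15.6% in Thy, a median of 16.9% and a highest of 21.1% in CD45. Both alleles kept within 1.36-fold and 1.35-fold ranges. In replicate 2 the 8 libraries held C10658T at 0.375% to 1.02% and G3079A at 0.154% to 0.702%, so the groups did not overlap.

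C7953T lies where the reading frames of ATP8 and ATP6 overlap, and it changes serine 63 of ATP8 to leucine while leaving phenylalanine 9 of ATP6. It ran from 7.60% in CD24_CD29 through a median of 10.9% to 14.1% in CD24, a 1.85-fold range. The exact 95% intervals of the lowest (7.17% to 8.05%) and the highest library (13.6% to 14.6%) lay apart. C7166T (H52Y in COX2) ran from 7.38% in CD24_CD29 to 11.3% in CD24 with a median of 9.27%, so the same libraries held the lowest and highest values of both alleles.

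A pair of synonymous ND2 alleles, C4093T (F60F) and C4216T (A101A), came next. C4093T had a lowest of 5.21% in CD29, a median of 7.42% and a highest of 8.21% in Thy_6C3. C4216T had a lowest of 5.32% in CD29, a median of 7.05% and a highest of 8.01% in Thy_6C3. Thy and CD29 were low and Thy_6C3 high for both. In replicate 2 neither exceeded 0.290%.

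In replicate 2 the highest allele of all was C11959T, which changes serine 73 of ND5 to leucine (S73L). It had a lowest of 18.4% in Thy_6C3, a median of 23.1% and a highest of 24.9% in 6C3, a 1.35-fold range, against 0.120% to 0.724% in replicate 1. C1051T, in the gene of the transfer RNA for valine (TrnV), ran from 9.81% in CD24_CD29 through a median of 15.2% to 17.9% in CD24. The CD24_CD29 library stood below the other 7, the next lowest being Thy_6C3 at 13.7%. In replicate 1 C1051T was between 0.0416% and 0.120%, so its mean was 180-fold higher in replicate 2, the largest such ratio of any shared transition.

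C3085T (S112L in ND1) ran from 5.84% in CD24 through a median of 7.84% to 10.1% in Thy_6C3, and C609T, in the small-subunit ribosomal RNA gene mt-Rnr1, from 4.90% in CD29 through 6.78% to 7.89% in Thy. Each stayed within a 1.72-fold range, and the libraries at the ends of the range differed from allele to allele. C3085T lies 6 bases from G3079A, and C3085T was shared in replicate 2 only while G3079A was shared in replicate 1 only.

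The spread between subsets was moderate for most shared transitions. The ratio of the highest to the lowest library had a median of 1.90 over the 66 alleles of replicate 1 (range 1.20 to 4.81) and of 2.05 over the 67 alleles of replicate 2 (range 1.35 to 6.03). It was at least 2 in 29 of 66 and in 35 of 67 alleles, under 1.5 in 8 and in 5, and at least 4 in 1 and in 8. The coefficient of variation had medians of 21.7% and 24.6%. Drift was also expressed as the normalised variance, which is the variance of the 8 fractions, less the mean binomial counting variance, divided by the mean times 1 minus the mean; on this scale alleles of different levels can be set side by side. Its median was 0.000912 in replicate 1 and 0.00116 in replicate 2.

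**Figure D2:**
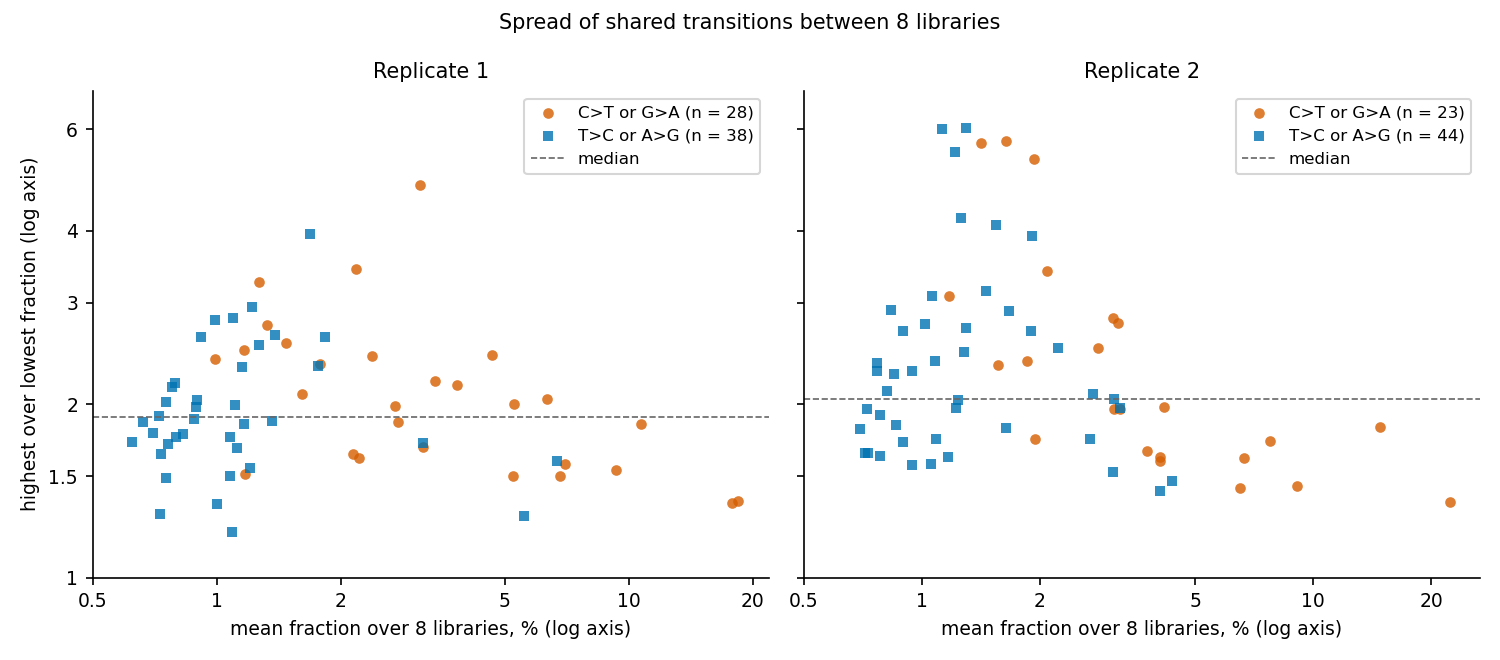
Ratio of the highest to the lowest of 8 libraries (log axis) against the mean fraction (percent, log axis) for the 66 shared transitions of replicate 1 (left) and the 67 of replicate 2 (right), coloured by kind of change, with the median ratio as a dashed line. Ratios above 4 belong to alleles with means between 1% and 4%, and alleles with means above 10% stay within a 1.85-fold range.

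The fold range was widest for alleles of middling level. Alleles with a mean of 1% to 2% had a median ratio of 2.33 in replicate 1 and 2.76 in replicate 2, those with a mean of at least 2% had 1.71 and 1.78, and those under 1% had 1.87 and 1.94. The rule bears on this, because an allele with a mean under 1% that fell much below it in any library would not have been a member. On the normalised scale the order was different, with medians of 0.00219 and 0.00139 at means of at least 2%, 0.000929 and 0.00143 at 1% to 2%, and 0.00037 and 0.000314 under 1%. C>T and G>A alleles had a median normalised variance of 0.00166, against 0.000483 for T>C and A>G alleles in replicate 1, and 0.00179 against 0.00071 in replicate 2. These classes also differed in mean level, and the kinds were not compared at like levels. Which of kind and level goes with the spread was therefore not tested.

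The widest drift in replicate 1 was that of G5171A at the light-strand origin. It stood at 6.27% in Thy_6C3 and 4.61% in CD29, had a median of 2.81%, and fell to 1.31% in CD24 (exact 95% interval 1.13% to 1.5%), a 4.81-fold range with a normalised variance of 0.00895. Without its highest library its normalised variance was 0.00481. In replicate 2 it was between 0.480% and 1.07%, below the lowest library of replicate 1 in all 8 libraries. C6918T, in the gene of a serine transfer RNA (TrnS1), stood at 4.13% in Thy and at 1.20% and 1.21% in CD24_CD29 and CD24, with a median of 2.13%. C4493T (L194F in ND2) reached 9.72% in CD24_CD29, while the other 7 libraries lay between 4.76% and 6.66%.

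In replicate 2 the widest drifts came through high values in CD24_CD29, the library with the lowest coverage. T13233C (F498L in ND5) stood at 3.74% there (exact 95% interval 3.33% to 4.2%) and at 0.684% to 1.04% in the other 7 libraries. T9609C (F51L in ND3) stood at 3.11% there and at 0.519% to 1.12% in the other 7. Without that library the normalised variance of T13233C was 0.000152 in place of 0.00874, and that of T9609C was 0.000426 in place of 0.0060. G272A, in mt-Rnr1, reached 4.18% in the same library, had a median of 1.75% and a lowest of 0.785% in CD105. In replicate 1 G272A was also highest in CD24_CD29, at 1.32%, against 0.0321% to 0.307% in the other 7. T9609C was not, at 0.247% in CD24_CD29 and 0.889% in 6C3 of replicate 1.

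A15004G, which turns a lysine codon of CYTB into a stop codon (K287*) in the mitochondrial code, differed in that 2 libraries were high. It stood at 3.07% in CD24_CD29 and 2.66% in Thy, at 1.39% in CD29, and at 0.509% to 0.853% in the other 5, a 6.03-fold range that was the widest of all shared transitions. In replicate 1 it did not exceed 0.348%. Leaving out the highest library, its normalised variance was 0.00562, against 0.00783 with all 8.

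The other alleles named as the most extreme in a library showed how far single subsets departed from the rest of their replicate. In replicate 1, T8331C (synonymous in ATP6) stood at 0.625% in Thy and 1.38% to 2.46% in the others, and T13267C (M509T in ND5) at 0.515% in CD24_CD29 and 0.862% to 1.45% in the others. A14379G (I79V in CYTB) was high in CD24_CD29 and CD45, at 1.89% and 1.77%, while the other 6 stood at 0.812% to 1.04%. T9648C (synonymous in ND3) was 0.813% in CD105 and 0.771% in Thy_6C3 beside a highest of 2.03% in 6C3, and G11217A (V351I in ND4) was 0.860% in CD29 beside 2.19% in Thy. A3482G (synonymous in ND1) was 1.25% in 6C3, with a lowest of 0.586% in Thy_6C3.

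In replicate 2, T6496C (M390T in COX1) stood at 3.19% in CD29 and 0.757% to 1.20% in the other 7. C7621T (synonymous in COX2) was high in CD105 and Thy_6C3, at 2.92% and 2.74%, and low in CD24_CD29 and CD24, at 0.510% and 0.721%. A4524G (N204S in ND2) stood at 0.534% in Thy_6C3 and 1.18% to 2.18% in the other 7. C3118T (S123L in ND1) ran from 0.53% in Thy to 2.99% in CD24_CD29, with CD45 second at 2.16%. The library that held the extreme value was therefore not the same from allele to allele.

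At the other end stood the alleles with the smallest normalised variances among means of at least 1%. T10288C, which changes leucine 41 of ND4 to proline (L41P), ran from 1.0% to 1.21% over the 8 libraries of replicate 1, a 1.20-fold range, with overlapping exact 95% intervals for the lowest library (0.859% to 1.17%) and the highest (1.11% to 1.30%). In replicate 2 it ran from 0.866% to 1.41%. A2467G, in the large-subunit ribosomal RNA gene mt-Rnr2, ran from 0.827% to 1.24% in replicate 1 and from 0.90% to 1.57% in replicate 2. T6211C (V295A in COX1) ran from 0.763% to 1.34% in replicate 1 and from 0.871% to 1.37% in replicate 2. These 3 alleles were shared in both replicates.

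T6101C (V258V in COX1) and C12076T (P112L in ND5) also kept within 1.55-fold ranges in replicate 1, at means of 1.21% and 1.17%, but stood lower in replicate 2, at 0.067% to 0.376% and 0.0756% to 0.818%. T5209C, in the gene of the cysteine transfer RNA (TrnC), ran from 1.24% to 2.26% in replicate 2, against 0.065% to 0.521% in replicate 1. A small spread between subsets was thus found both in alleles shared by the 2 replicates and in alleles of 1 replicate.

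Changes that make a stop codon were 3 of the 85 in coding sequence (3.53%, against 3.75% of possible transitions), A15004G among them. G9775A, which ends ND3 at tryptophan 106 (W106*), ran from 1.66% in 6C3 through a median of 2.40% to 2.69% in CD29 in replicate 1. G9526A, which ends ND3 at tryptophan 23 (W23*), ran from 1.56% in CD24_CD29 through 3.14% to 4.39% in Thy_6C3 in replicate 2. Each was below the threshold in most or all libraries of the other replicate, with highest values of 0.221% and 0.882%. T6870C replaces the stop codon of COX1 (*515Q) and also lies in TrnS1, and it ran from 0.812% in CD29 to 1.37% in Thy_6C3 in replicate 1.

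Among transfer RNA genes, G5026A and A5028G lie 2 bases apart in TrnA, the gene for alanine, and both were shared in replicate 1. G5026A ran from 2.59% in CD29 through 3.61% to 5.58% in Thy_6C3, and A5028G from 0.685% in CD29 through 1.14% to 1.37% in Thy. CD29 was the lowest library for both. A9444G, in the glycine gene TrnG, ran from 2.19% in CD24_CD29 through 3.25% to 3.74% in CD24. In replicate 2, A1060G in TrnV ran from 0.501% in Thy_6C3 to 1.38% in 6C3, and A11708G in TrnL2, a leucine gene, from 1.32% in CD24_CD29 through 2.24% to 3.29% in CD29.

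Most shared transitions stood higher in the replicate number where they were shared than in the other. The mean in the number where an allele was shared exceeded the mean in the other number by a median of 3.86-fold for the 66 alleles of replicate 1 and 4.79-fold for the 67 of replicate 2. The ratio was at least 10 in 19 of 66 and in 14 of 67 alleles, and under 1.5 in 23 and in 19, of which 20 and 16 were T>C or A>G. All 8 fractions lay above all 8 of the other number in 39 of the 66 alleles of replicate 1, where 0.383% of the 18006 alleles that met the threshold in at least 1 library did so. In replicate 2 this held for 34 of 67, where 0.394% of the 18006 did. The 18006 are alleles of all changes, and among the 4633 transitions tested 56 did so for replicate 1 and 51 for replicate 2. The rule asked for high values in 1 number, so nothing is read from these counts. In 24 of 66 and in 17 of 67 alleles no library of the other number met the threshold.

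**Figure D3:**
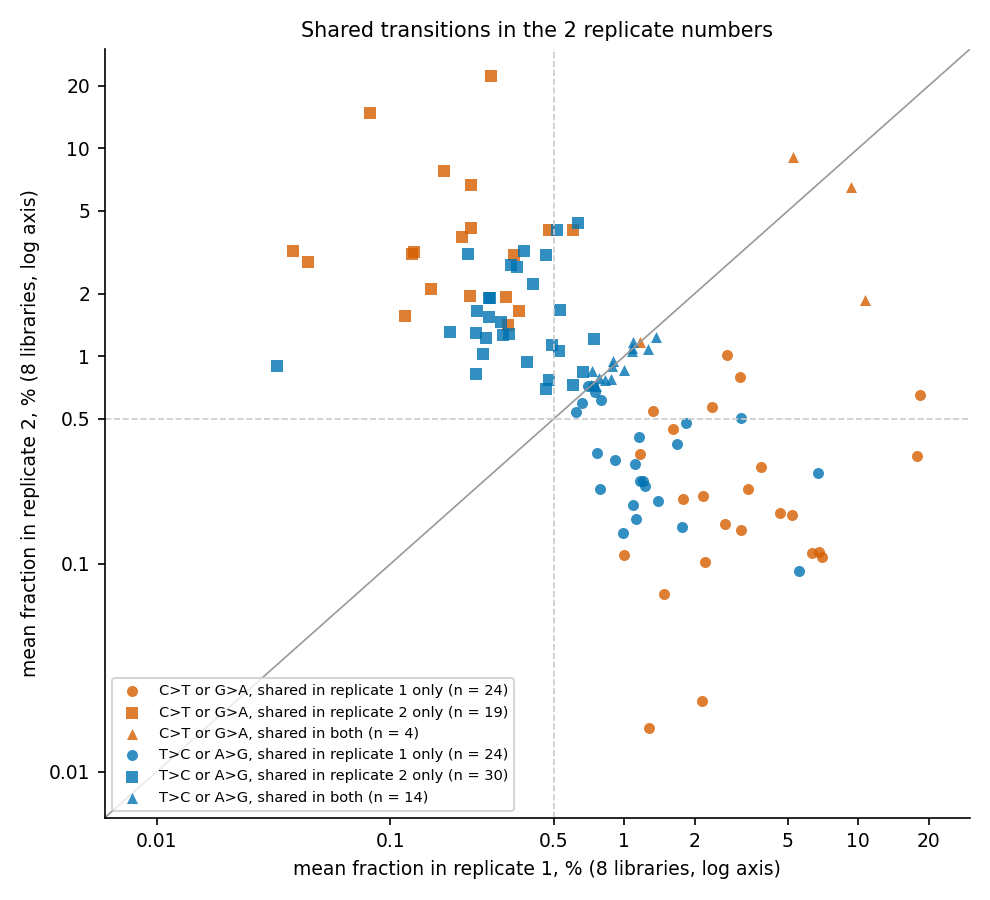
Mean fraction (percent, log axes) of the 115 shared transitions over the 8 libraries of replicate 1 and of replicate 2, by kind of change and by where the allele was shared, with the line of equal means and dashed lines at 0.5%. Most alleles lie far from the line, C7166T, C7953T and C14024T stand at the upper right, and the other 15 alleles shared in both numbers sit close to the line between 0.715% and 1.36%.

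The 18 alleles shared in both numbers fell into a high and a low group. The high group was C7166T, C7953T and C14024T. C14024T, which changes cysteine 16 of ND6 to tyrosine (C16Y), averaged 5.26% ± 1.10 in replicate 1 and 9.10% ± 1.01 in replicate 2 (SD, n = 8 each). It ran from 3.74% in CD24 to 7.49% in CD24_CD29 in replicate 1, and from 7.27% in Thy_6C3 to 10.5% in CD24 in replicate 2. C7166T averaged 9.34% ± 1.35 in replicate 1 and 6.49% ± 0.845 in replicate 2. Both overlapped between the numbers, while C7953T did not, at 10.7% ± 2.2 in replicate 1 and 1.86% ± 0.589 in replicate 2.

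The low group held 15 alleles with means of 0.715% to 1.36% and ratios of replicate 1 to replicate 2 of 0.857 to 1.17. Of these, 14 were T>C or A>G and 1, C9581T, was C>T, and the ranges of all 15 overlapped between the numbers. T15024C, for example, averaged 0.723% ± 0.138 in replicate 1 and 0.730% ± 0.123 in replicate 2. Over all 18, the lowest library was the same subset in both numbers for 4 alleles and the highest for 3. Alleles shared in both numbers had lower median normalised variances than alleles of 1 number. The medians were 0.000462, against 0.0011, in replicate 1, and 0.00033, against 0.00149, in replicate 2. Alleles shared in both numbers were also lower in level, where the rule limits the spread. Shared transitions with means under 1% had medians of 0.00037 in replicate 1 and 0.000314 in replicate 2.

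The background of base calls was measured around the shared transitions. The bases beside them carried transitions at a median of 0.123%, against 0.0988% and 0.0996% over all positions of replicates 1 and 2. The summed transversions at their own positions had a median of 0.340%, against 0.281% and 0.347% over all positions, and coverage there was 1.01 times the library mean at the median. The sum was highest at the control-region allele A16099G, 5.05%, beside a mean of 0.732% for the transition itself in replicate 1. The share of the background in the low group was not tested.

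Transversions that met the same threshold in all 8 libraries had a smaller median spread, at lower levels, and were more often shared in both numbers. There were 145 in replicate 1 and 136 in replicate 2, of which 109 were shared in both, against 18 of the transitions. Shared transitions had median ratios of highest to lowest of 1.90 and 2.05, and shared transversions of 1.37 and 1.98. In replicate 2 the transversions had 1.42 without the Thy library. Median normalised variances were 0.000912 and 0.00116 for transitions, and 4.38e-05 and 0.000489 for transversions, or 7.3e-05 in replicate 2 without Thy. The medians of the mean fractions were 0.814% and 0.923% for shared transversions, against 1.27% and 1.55% for shared transitions. Shared transitions with means under 1% had median ratios of 1.87 and 1.94 and median normalised variances of 0.00037 and 0.000314. In replicate 2 the transversions, with all 8 libraries, did not spread less than these. The part of level in the difference was not tested. The mean in the own number over the other had a median of 3.86 and 4.79 for transitions and of 0.958 and 1.08 for transversions.

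No subset was raised or lowered for all shared transitions. Taking for each allele the log2 of its fraction over the median of the other 7 libraries, the median over alleles ran from -0.13 in CD29 to 0.16 in 6C3 in replicate 1, and from -0.21 in Thy to 0.09 in CD24_CD29 in replicate 2. The sum of the fractions of the shared transitions ran from 174.6% to 188.6% over the libraries of replicate 1 and from 167.9% to 189.0% over those of replicate 2. In 6C3 of replicate 1, 45 of 66 alleles lay above the median of the other libraries, and that library also had the highest median fraction of T>C over all positions, 0.284%. With the 23 alleles of at least 2% alone, its median shift was -0.00438 (log2). In Thy of replicate 2, 20 of 67 alleles lay above the median of the other libraries, and the median shift of -0.21 was -0.07 for the 24 alleles of at least 2%. The part of the background in these shifts was not tested.

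**Figure D4:**
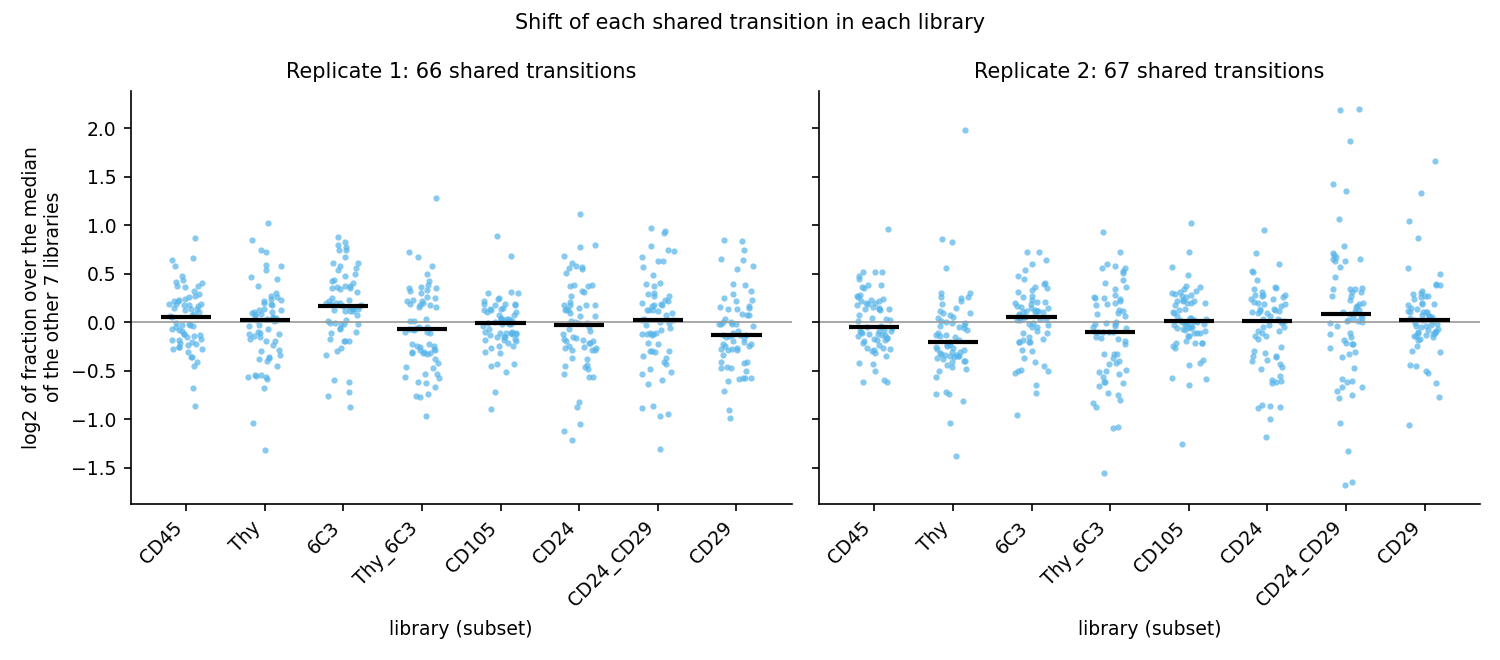
Log2 of each shared transition's fraction over the median of the other 7 libraries of its replicate, with 1 point per allele and a black bar at the median, for the libraries of replicate 1 (left, 66 alleles) and replicate 2 (right, 67 alleles). Medians lie between -0.21 and 0.16, while single alleles reach 2.19 (T13233C) in CD24_CD29 of replicate 2.

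The ends of the range were unevenly spread over libraries. In replicate 1 the lowest value fell in Thy_6C3 for 15 alleles and in CD29 and CD24_CD29 for 13 each, and the highest in 6C3 and CD24 for 12 each and in CD24_CD29 for 11. In replicate 2 the lowest fell in CD24_CD29 and Thy_6C3 for 14 each and in Thy for 13, and the highest in CD24_CD29 for 19 and in 6C3 for 13. CD105 and CD45 held few extremes in either number, at 2 to 5 lowest or highest alleles each. The CD24_CD29 libraries had the lowest mean coverage of their numbers, 13534 and 6569, and the median size of a departure there was 0.30 and 0.34 on the log2 scale, against 0.14 and 0.20 in CD105. Thy_6C3 had departures of like size, 0.30 and 0.33, at mean coverages of 20452 and 14843, and CD45 of replicate 2 had 0.20 at 13931. The part of coverage or of cell number in this was not tested, and the labels give no cell numbers.

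Whether any shared transition differed between subsets was tested across replicates, with 2 libraries per subset. The first fit had no term for the replicate number, so a gap between the numbers counted as spread within a subset. Such gaps were large for many shared transitions, with medians of 3.86-fold and 4.79-fold. The 0 calls of this fit therefore cannot show that the subsets were alike, and a fit with a block for the number is given below. The edgeR quasi-likelihood test over all 8 subsets at once called 0 of 115 shared transitions at an adjusted p under 0.05, and 0% of the 18006 alleles tested. At an unadjusted p under 0.05 it held 0 shared transitions and 804 of all alleles. The smallest p was that of T13233C, with an adjusted p of 0.785. Setting 1 subset against the average of the others likewise gave 0 of 115 in each of the 8 contrasts, where 0% of all alleles were called, except 0.00555% (1 allele) for Thy.

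In this edgeR fit, 3 shared transitions had unadjusted p-values under 0.05. They were T13052C, a synonymous ND5 allele, in 6C3, and T13233C and A12998G in CD24_CD29. Of all 18006 alleles, 554 in 6C3 and 1220 in CD24_CD29 had such values. T13233C was 1.53 higher on the log2 scale in CD24_CD29 (adjusted p = 0.522, edgeR). In replicate 1 its 1.12% in CD24_CD29 was the second highest value, below 1.20% in 6C3 and above the other 6 libraries (0.222% to 1.06%). DESeq2 also called 0 of 115 over all subsets, where 1.5% of all alleles were called, and 0 in each contrast, where its calls among all alleles made up 30.7% in the Thy contrast, 1.26% in that of CD24_CD29, 0.328% in Thy_6C3, 0.0778% in CD29, 0.0167% in 6C3, 0.00555% in CD45 and in CD24, and 0% in CD105. For CD24 it gave no adjusted p for 24 of the 115. When edgeR was fitted with a block for the replicate number, it called 0 of 115 in each test, where 0.0111% of all alleles were called for Thy and 0% in the other 8 tests. Unadjusted p-values under 0.05 were then held by 11 shared transitions in CD24_CD29, 5 in Thy, 4 in Thy_6C3, 3 in 6C3 and 3 in CD24. There were 2 in CD29, 1 in CD45, 0 in CD105 and 1 over all subsets. Among all 18006 alleles such values were held by 1332 in CD24_CD29, 7508 in Thy, 904 in Thy_6C3, 617 in 6C3 and 637 in CD24. The other counts over all alleles were 455 in CD29, 146 in CD45, 113 in CD105 and 897 over all subsets. Nothing particular to the shared transitions is read from these counts. The lowest adjusted p among the shared transitions was 0.09996, for T8331C and G11217A in Thy (edgeR with the block). DESeq2 held T13052C in 6C3 and T13233C and A6919G in CD24_CD29 at an unadjusted p under 0.05. Of all alleles, it held 699 in 6C3 and 1551 in CD24_CD29.

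Libraries of 1 replicate did differ beyond counting error, as nearly all alleles did. A chi-square test of the counts over the 8 libraries gave an adjusted p under 0.05 for 66 of 66 shared transitions in replicate 1, where 92% of 4805 alleles were called, and for 66 of 67 in replicate 2, where 99.9% of 16140 were called. The exception was T3117C in ND1 (adjusted p = 0.404), which ran from 0.536% to 0.872%. The shares are near those of all alleles, and the test takes each read as independent, so nothing particular to the shared transitions is read from it. Transitions made up 2954 of the 4805 alleles of replicate 1 and 3196 of the 16140 of replicate 2. The surplus in replicate 2 was thus mostly transversions. Shared transversions of replicate 2 spread less without the Thy library. The part of that library in the 16140, and in the 18006 alleles above, was not tested.

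Some alleles moved together across the libraries of a replicate. Correlations over 8 libraries were computed for the 253 pairs among the 23 alleles of at least 2% in replicate 1 and the 276 pairs among the 24 in replicate 2, and had medians of -0.04 and 0.01. The pairs below were chosen after their values were seen, and with 8 points that share their libraries they are a description.

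C4093T and C4216T in ND2 lie 123 bases apart and had near-equal means (6.99% and 6.81%), with a Pearson r of 0.91, a Spearman rho of 0.90 and a largest difference of 1.25 percentage points in any library. Without the 2 libraries farthest from the median, r was 0.59. C10658T and G3079A, at 18.5% and 17.8%, had r = 0.83 and rho = 0.88, and r = 0.79 without the 2 farthest libraries. C227T in mt-Rnr1 and C7953T had r = 0.92 and rho = 0.90 at unequal means of 4.65% and 10.7%, and r = 0.91 without the 2 farthest.

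**Figure D5:**
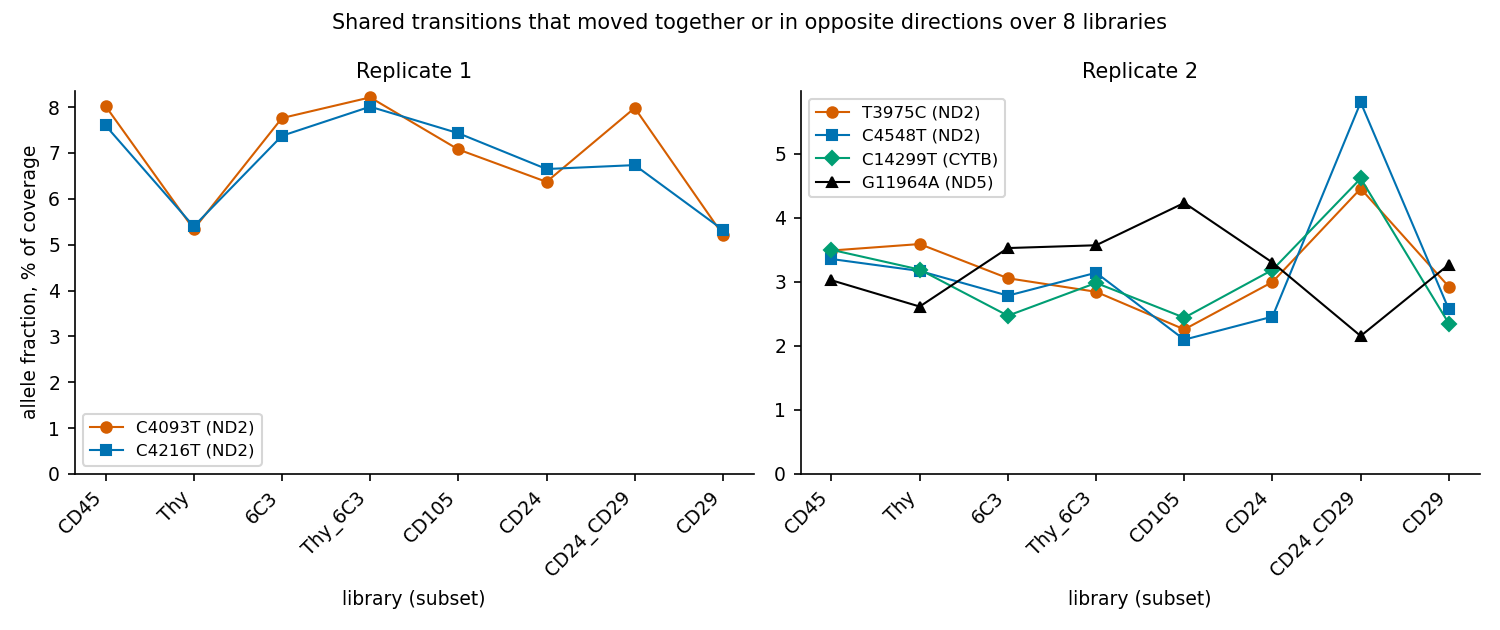
Allele fraction (percent of coverage) in the 8 libraries for C4093T and C4216T in replicate 1 (left) and for T3975C, C4548T, C14299T and G11964A in replicate 2 (right), joined by lines to follow an allele. C4093T and C4216T run side by side, low in Thy and CD29, and in replicate 2 G11964A is lowest in CD24_CD29, where the other 3 are highest.

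In replicate 2, T3975C (M21T in ND2), C4548T (T212M in ND2) and C14299T (A52V in CYTB) had near-equal means of 3.20%, 3.17% and 3.09%. They were highest together in CD24_CD29, at 4.46%, 5.80% and 4.62%. T3975C with C4548T had r = 0.91 and rho = 0.81, and C4548T with C14299T r = 0.91 and rho = 0.81; without the 2 farthest libraries r was 0.62 and 0.58, so the relation rests in part on them. G11964A (E75K in ND5), at a mean of 3.21%, moved against T3975C with r = -0.97 and rho = -0.90, and r = -0.89 without the 2 farthest. It was lowest in CD24_CD29, at 2.16%, and highest in CD105, at 4.23%, where T3975C was lowest at 2.26%.

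Alleles that were near each other in sequence did not always move together in level. Of the 115, 13 neighbouring pairs lay within 10 bases. C11959T and G11964A lie 5 bases apart in ND5 and were both shared in replicate 2 at means of 22.4% and 3.21%, and C11959T was lowest in Thy_6C3 while G11964A was lowest in CD24_CD29. C635T, in mt-Rnr1, was shared in replicate 1 at 2.02% to 3.77% and stood in replicate 2 at 4.29% in CD24_CD29 and 0.207% to 0.748% in the other 7, so an allele shared by all subsets of 1 replicate could be high in a single subset of the other.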

How the data were processed

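Mitochondrial DNA was read in 16 ATAC-seq libraries. The authors deposited whole-number counts, not normalized, per the file headers and values: for each library, the coverage of 16299 positions and, at every position, how often a read held each of the 3 other bases. Per the submitters' processing notes, bcl2fastq 2.20, cutadapt 2.10, BWA 0.7.17 and the builds GRCm38 and mm10 were used, without a role for each. How quality filters, duplicate reads and nuclear mitochondrial copies were handled is not given in the sources used here, and each can change a low fraction.

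Fractions, spreads and exact intervals were computed from the counts with Python 3.11.15 (pandas 2.3.3, scipy 1.17.1). A position was taken as in a gene by the RefSeq coordinates, and the strand of a coding gene was the one with no internal stop codon. Subsets were compared with edgeR 4.0.16 in R 4.3.3 on 18006 alleles of all changes that met 0.5% and 5 counts in at least 1 library, with a pair of columns per library (changed base and all other bases), a term per library and a term per subset, 8 residual degrees of freedom, and Benjamini-Hochberg adjustment over all alleles tested. DESeq2 1.42.0 was an alternative. Libraries of a replicate number were compared by a chi-square test, adjusted over the alleles tested in that number. Because the labels do not tie libraries to mice, p-values reflect the spread between libraries alone, and that spread may be technical. The scripts were also run on simulated counts. For the subset test, alleles there had the same mean in both replicate numbers. That run does not show what the test can find where the numbers differ.

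The replicate numbers come from the labels. Over the 18006 alleles, deviations from the subset mean of libraries with the same number correlated at 0.175 to 0.633 in all 28 pairs of subsets, so the numbers were taken to pair the libraries. Over the 115 shared transitions the correlations were 0.926 to 0.986, which the rule itself favours, since it asks for high values in 1 number.

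The members, the tests and the lists were chosen with earlier results of these data known. Alleles were named, in each number, for the 6 highest means; the 4 largest and 4 smallest normalised variances at means of at least 1%; the 3 lowest values just inside and the 3 highest just outside the threshold; the largest log2 departure in each library; sharing in both numbers at means of at least 2%; the smallest edgeR p; and, at means of at least 1%, a stop codon or a transfer RNA gene. Others named were chosen after their values were seen.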

Additional observations from a re-analysis of the deposited data

Results flagged for a closer look

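Dixon's criterion for 8 values asks whether 1 library was far from the other 7 of its number. It was met in 5 of 66 shared transitions of replicate 1 and in 11 of 67 of replicate 2. For normal values of equal variance the criterion is met in about 1 in 20. These fractions differ in coverage and are cut off by the rule, so that rate is no measure for them. The same criterion picked 29.4% of the 2954 transitions that met the threshold in at least 1 library of replicate 1 and 34.8% of the 3196 of replicate 2, and 30.6% and 74.3% of alleles of all changes. The rule for shared transitions asks for a high value in every library, which bears on these shares. Of the 16 shared transitions so picked, 10 stood out in a CD24_CD29 library, with 3 high in replicate 1 and 5 high and 2 low in replicate 2. These libraries had the lowest mean coverage of their numbers, and the part of coverage in this was not tested.

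In CD24_CD29 of replicate 1, C4493T stood at 9.72%, A13263G (ND5) at 1.61% and T6885C (TrnS1) at 0.964%, each above the other 7 libraries. In CD24_CD29 of replicate 2, C4548T stood high at 5.80%, G272A at 4.18%, T13233C at 3.74%, T9609C at 3.11% and T15024C at 0.987%. In the same library C10099T (synonymous in ND4L) stood low at 0.759% and T3117C at 0.536%. T3117C was the 1 shared transition of replicate 2 whose libraries did not differ beyond counting error by the chi-square test.

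Outside CD24_CD29, T6496C stood high at 3.19% and T2556C (mt-Rnr2) at 1.75% in CD29 of replicate 2, and A2467G at 1.57% in CD24 of replicate 2. T3944C (F11L in ND2) stood high at 0.873% in 6C3 of replicate 1. Low values were T14046C (ND6) at 0.906% in CD24 of replicate 1 and A1422G (mt-Rnr2) at 0.601% in CD45 of replicate 2. The value of A1422G rests on 54 counts, and its 8 libraries had a chi-square adjusted p of 0.0484.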

How the results depend on the processing

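The number of shared transitions followed the threshold: at 1% it was 27 in replicate 1, 29 in replicate 2, 3 in both and 53 in either, and at 0.25% it was 257, 257, 89 and 425. Asking for 7 libraries, with each left out in turn, gave 68 to 79 in replicate 1, 67 to 83 in replicate 2, 18 to 20 in both and 115 to 129 in either.

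The median ratio of highest to lowest was 1.77 in replicate 1 and 1.82 in replicate 2 without both CD24_CD29 libraries, 2.07 and 2.17 with the library median of the same change subtracted, 1.71 and 1.78 at means of at least 2%, and 2.05 and 2.18 thinned to the lowest coverage. The median coefficient of variation in replicate 1 was 24.5% subtracted and 25.2% thinned, and in replicate 2 it was 19.6% without CD24_CD29 and 18.8% at means of at least 2%. The median normalised variance at means of at least 2% was 0.00219 and 0.00139, and in replicate 2 it was 0.000808 without CD24_CD29. With each library left out in turn, the ratio was 1.77 to 1.90 and 1.82 to 2.05, the normalised variance 0.000799 to 0.00105 and 0.000808 to 0.00124, and the coefficient of variation 20.7% to 23.1% and 19.6% to 25.9%. Shared transversions of replicate 2 had a median ratio of 1.42 and a normalised variance of 7.3e-05 without the Thy libraries, an alternative chosen after seeing the data. The cause of these shifts was not tested, except that fewer libraries narrow a range.

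With all counts divided by 10, the chi-square test called 35 of 66 and 30 of 67 shared transitions. In that setting 52.2% and 61.6% of all alleles tested were called. With a library left out the test called 64 to 66 in each number. The share over all alleles was not computed there, so nothing is read from that range. No subset test called a shared transition under any alternative, including the replicate block (0 of 115), DESeq2, other filters (110 of the 115 tested at 1%) and each of the 16 libraries left out; the block changed no call. Without Thy replicate 1, 9162 of the 18006 alleles were called over all subsets and 12085 for Thy, and 0 of the 115. Where a library is left out its subset has 1 library, which is assumed to vary like the others. Thinned to the lowest coverage, 59 of the 66 and 61 of the 67 shared transitions still met the rule, so depth bore on membership. The smallest count of a shared transition in a library of its number was 26.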
